A study of Mus musculus with 24 samples.

Results

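The 10 integrin chains described here are cell surface adhesion receptor subunits of leukocytes, whose transcripts were sequenced from small numbers of liver cells sorted for CD11c and MHC class II. They were chosen by name (Itgal, Itgam, Itgax, Itgb2, Itga4, Itgb7, Itgb1, Itgav, Itgb3 and Itgb5) from the 45792 genes of the deposited tables. Itgav and Itgb3 were selected on small p-values for curcumin against empty liposomes in these same libraries, and Itgax because its protein, CD11c, was the sorting marker. Values of curcumin against empty liposomes are therefore given as a description, without a test. All 10 chains passed the filter on low values (log2 values averaging 4 or more), as did 14227 genes in all.

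The cells came from livers of female C57BL/6 mice fed a diet lacking methionine and choline for 2 weeks, which gives a fatty, inflamed liver. Each mouse received, by vein, liposomes labelled with the red membrane dye DiI, and these were empty or carried curcumin, the polyphenol of turmeric. After 24 hours, CD11c+ MHC class II+ cells were sorted into those that carried the dye (DiI-positive) and those that did not (DiI-negative). This gave 4 groups of 3 libraries: empty liposome DiI-positive, empty liposome DiI-negative, curcumin liposome DiI-positive and curcumin liposome DiI-negative. All 4 groups shared the diet, the strain, the sex and a liposome injection, so there was no group on a normal diet or without liposomes. Whether a library stands for 1 mouse or for a pool is not stated, so a p-value here reflects library-to-library spread, which may be technical.

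Integrins are pairs of an alpha and a beta chain that hold cells to other cells and to matrix. Signals from inside the cell, through the small GTPase Rap1, talin and kindlin, switch them to a state that binds ligand, and ligand binding in turn signals inward through Src-family kinases, Syk and the actin linkers. The beta2 family (Itgb2 with Itgal, Itgam or Itgax) binds ICAMs, fibrinogen and complement fragments. The alpha4 chain with Itgb1 binds VCAM-1 and fibronectin, and with Itgb7 it binds the gut addressin MAdCAM-1. Itgav with Itgb3 or Itgb5 binds vitronectin and takes part in the clearance of apoptotic cells.

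The promoters of 3 chains are shown because Itgam and Itgb7 were the 2 chains called lower in DiI-positive cells and Itgax was the sorting marker. Each run gives 250 bases before and 50 bases after the RefSeq transcription start on GRCm38.p6, 5′ to 3′ on the strand of the gene. Capitals mark GAGGAA, a box bound by the myeloid factor PU.1, and TGTGGT, a core bound by RUNX factors, each read on either strand (TTCCTC and ACCACA on the other).
Itgam, chr7:128062390-128062689, plus strand: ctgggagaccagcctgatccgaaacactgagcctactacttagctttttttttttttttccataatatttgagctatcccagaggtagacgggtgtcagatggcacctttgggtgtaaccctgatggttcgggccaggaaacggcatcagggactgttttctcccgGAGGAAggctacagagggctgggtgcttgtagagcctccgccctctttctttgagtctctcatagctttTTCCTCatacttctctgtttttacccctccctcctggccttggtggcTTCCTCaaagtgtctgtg
Itgb7, chr15:102231886-102232185, minus strand: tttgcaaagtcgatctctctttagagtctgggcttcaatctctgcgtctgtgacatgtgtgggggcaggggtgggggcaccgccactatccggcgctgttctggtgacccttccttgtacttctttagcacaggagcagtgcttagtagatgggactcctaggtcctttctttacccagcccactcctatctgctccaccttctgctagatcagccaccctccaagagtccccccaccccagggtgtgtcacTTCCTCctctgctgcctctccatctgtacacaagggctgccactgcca
Itgax, chr7:128129300-128129599, plus strand: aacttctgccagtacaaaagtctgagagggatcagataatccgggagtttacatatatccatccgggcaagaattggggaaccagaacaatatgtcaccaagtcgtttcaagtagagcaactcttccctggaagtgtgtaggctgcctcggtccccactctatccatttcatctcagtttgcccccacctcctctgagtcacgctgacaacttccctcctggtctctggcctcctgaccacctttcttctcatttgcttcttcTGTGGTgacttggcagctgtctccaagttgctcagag
The Itgam window held GAGGAA 84 bases before the start on the given strand, and TTCCTC beginning 15 bases before the start and 32 bases after it. The Itgb7 window held TTCCTC beginning 2 bases after the start and no TGTGGT. In the Itgax window TGTGGT began 13 bases after the start, and GAGGAA was absent from these letters. RefSeq promoters matched 7 of the 10 chains, and Itgal, Itgb2 and Itgb3 had no entry. GAGGAA was present in 4 of the 7 (Itgam, Itgav, Itgb1 and Itgb7) and in 28.3% of 32851 promoters of the same length. TGTGGT was present in 2 of the 7 (Itga4 and Itgax) and in 16.8% of all promoters.

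In the GENCODE M21 annotation of GRCm38 all 10 are protein-coding genes. Itgal (chr7:127296260-127335138), Itgam (chr7:128062640-128118491) and Itgax (chr7:128129547-128150657), 3 alpha chains that pair with Itgb2, lie on the plus strand of chromosome 7. Itga4 (chr2:79255426-79333123) and Itgav (chr2:83724397-83806916) lie on chromosome 2, both on the plus strand. The beta chains lie apart, at chr8:128685654-128733200 (Itgb1), chr10:77530252-77565708 (Itgb2), chr11:104608000-104670476 (Itgb3), chr15:102215995-102231944 (Itgb7, minus strand) and chr16:33829665-33949338 (Itgb5).

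The deposited values are log2 expression values on a scale that shrinks low genes, and a difference of 1 is a 2-fold change on that scale. Read totals are not held in these values. A relative depth index, also used as a covariate in an alternative fit, ran from 0.765 to 1.112 in DiI-positive and from 0.983 to 1.338 in DiI-negative libraries. It was lower in most DiI-positive libraries, so a fit that holds it cannot fully separate depth from gate. On principal components the 2 gates separated along the first axis (34% of the variance), and the second (13.8%) set curcumin DiI-positive replicates 1 (28.5) and 3 (-26.2) apart. Replicate 3 also lay nearest to the DiI-negative libraries on the first component (-6.5, against -27.7 to -13.3 for the other DiI-positive libraries). Calls of the chains and of the named pathway genes that changed without it are given both ways.

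To check the label of the sort, marker genes were read in the same libraries. The dendritic cell genes Flt3 (group means of 10.59 to 12.64) and Zbtb46 (9.07 to 11.21) were present in all groups. Flt3 was lower in DiI-positive than DiI-negative cells by -1.65 ± 0.32 (limma adjusted p = 0.0073), averaged over both liposomes. Kupffer cell and B cell markers were present as well. Of 12 Kupffer cell markers, 11 were higher in DiI-positive cells, with a summed log2 level of 15.51 to 16.88 (empty) and 16.06 to 17.22 (curcumin) against 14.02 to 14.38 and 14.10 to 14.14 in DiI-negative cells. All 11 B cell markers were higher in DiI-positive cells, with summed levels of 16.66 to 17.83 against 15.98 to 16.56. Curcumin DiI-positive replicate 3 had the highest Kupffer cell sum of all libraries (17.22) and the lowest B cell sum of the DiI-positive libraries (16.66). This library and curcumin DiI-negative replicate 3 had the highest cDC1 (15.35 and 15.88) and plasmacytoid dendritic cell sums (13.16 and 13.30). They also had the lowest neutrophil sums (11.65 and 11.56). Of 12 NK and T cell markers, 7 were lower in DiI-positive cells (12.03 to 12.60 against 13.02 to 13.64), as were 6 of 10 monocyte and 4 of 8 cDC2 markers, while 1 monocyte marker was higher. Of 6 common dendritic cell genes 1 was higher and 3 lower, and of 8 cDC1 markers 1 was higher and 2 lower. Sinusoidal endothelial markers were higher for 2 of 8, and of 3 tested platelet markers 1 was higher, Clec1b, which the Kupffer cell list holds too. None of 6 plasmacytoid dendritic cell, 7 neutrophil and 6 hepatocyte markers tested was called. No marker on any list was at 0 in all libraries. Each bulk value mixes these cells, so fewer cells of a type and less RNA per cell cannot be told apart, and the part of cell mixture in the integrin results below was not tested.

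To order the chains, the mean log2 value over 12 libraries was taken per kilobase of exon. Itgb2, the shared beta chain of the LFA-1 and Mac-1 receptors, was highest at 13.53, followed by Itgb7 (12.94), Itgal (11.62) and Itgb1 (11.19). Itgax (10.67) and Itgam (10.57) differed by 0.10, less than the SD of their difference over the libraries (0.31), and were not ordered. Itgb5 (9.18) and Itga4 (8.86) were not ordered either, with a gap of 0.31 and an SD of 0.57. They changed places when the longest transcript was used as the length. Itgav (7.25) and Itgb3 (6.37) were lowest. Thus Itgb2 and Itgb7 headed the list, and the pair of Itgav and Itgb3 closed it.

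**Figure D1:**
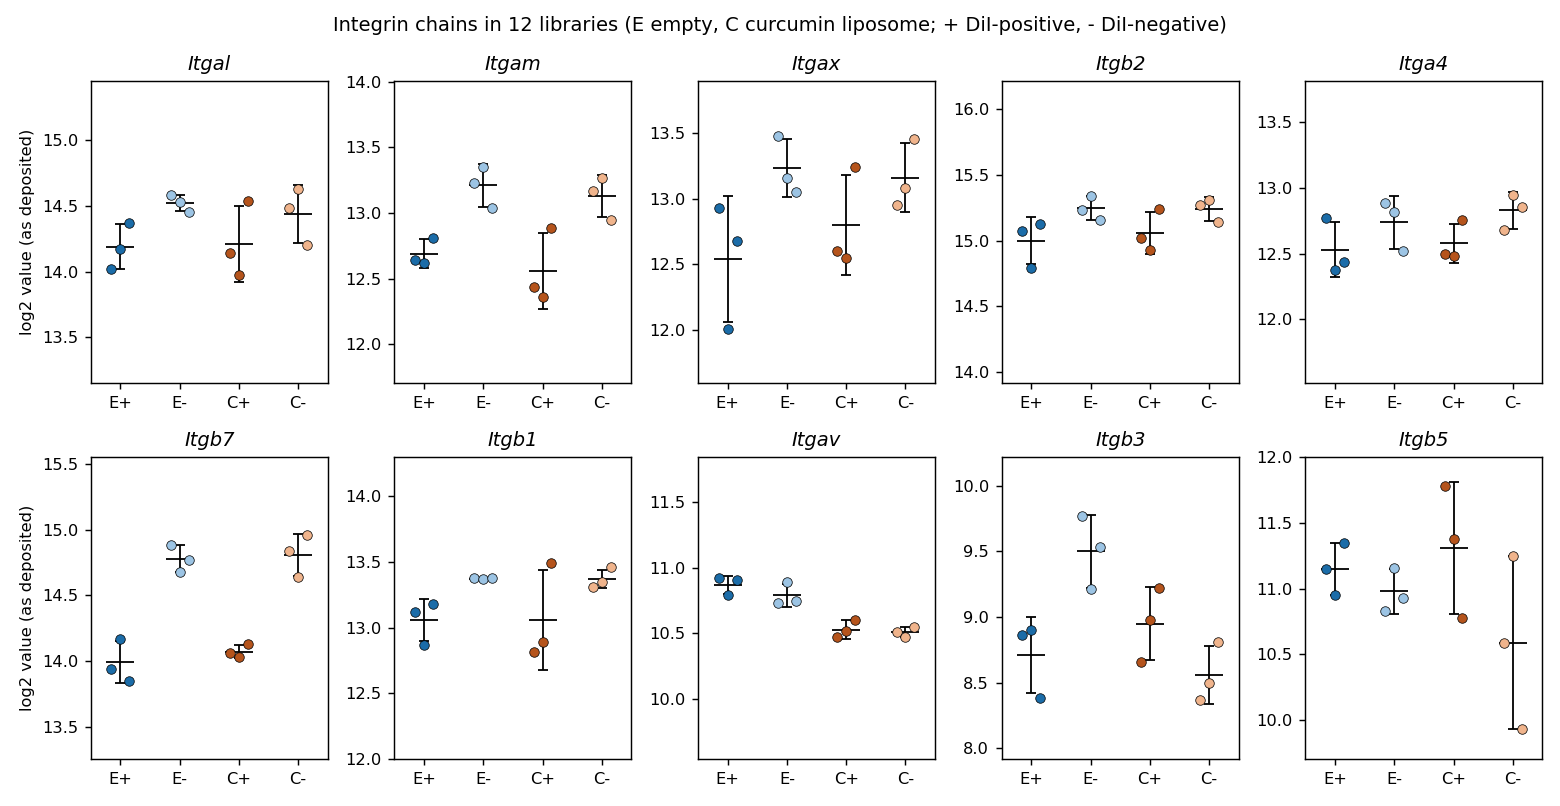
Deposited log2 values (vertical axes, each panel spanning the same height) of the 10 chains in every library of the 4 groups. Points are libraries, and lines and bars are the mean and SD of 3. Itgb7 and Itgam libraries of the 2 gates do not overlap, and Itgav libraries separate by liposome.

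The chains differed in how tightly the libraries of a group agreed. The SD within groups was smallest for Itgav (0.07) and largest for Itgb5 (0.44), Itgax (0.35) and Itgb3 (0.27), against 0.20 for the median tested gene. Itgav was chosen on a small p-value in these same libraries, a choice that favours a small SD within groups. Over all 12 libraries the range was 0.45 for Itgav and 1.85 for Itgb5, against 0.74 for the median gene.

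The gate comparison asked how cells that took up liposomes differed from those that did not. Itgb7 and Itgam were called lower in DiI-positive cells, and none of the 10 chains was called higher. Averaged over both liposomes, 2 of 10 chains were called by limma (Benjamini-Hochberg adjusted p under 0.05 over all genes tested), both lower, against 12.1% of all tested genes (6.56% lower and 5.54% higher), so the count itself lies near the share of all genes. After empty liposomes 1 of 10 was called, Itgb7, against 2.95% of genes (1.62% lower), and after curcumin liposomes again Itgb7 alone, against 3.07% (1.67% lower). Differences below 0 were found for 8 of 10 chains after empty liposomes, 7 after curcumin liposomes and 8 on average, against 49.2%, 50.5% and 48.9% of genes. The median difference of the 10 chains was -0.33 (empty), -0.24 (curcumin) and -0.26 (average), beside medians of 0.00, 0.00 and 0.01 over all tested genes. After empty liposomes, 7 of 10 chains, Itgb3 among them, had all DiI-positive libraries below all DiI-negative ones, against 14.5% of genes. After curcumin liposomes 2 did, against 10.7%. Over 6 libraries against 6, 2 chains did, against 3.52%. The choice of Itgav and Itgb3 used the same libraries as the differences within a liposome. Counts and medians of the 10 chains within a liposome are therefore a description only. Curcumin DiI-positive replicate 3 bore on the count of calls: without it 6 chains were called lower on average (Itgal, Itgam, Itgax, Itgb1, Itgb2 and Itgb7), and without empty DiI-positive replicate 1 there were 3 (Itgam, Itgax and Itgb7).

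**Figure D2:**
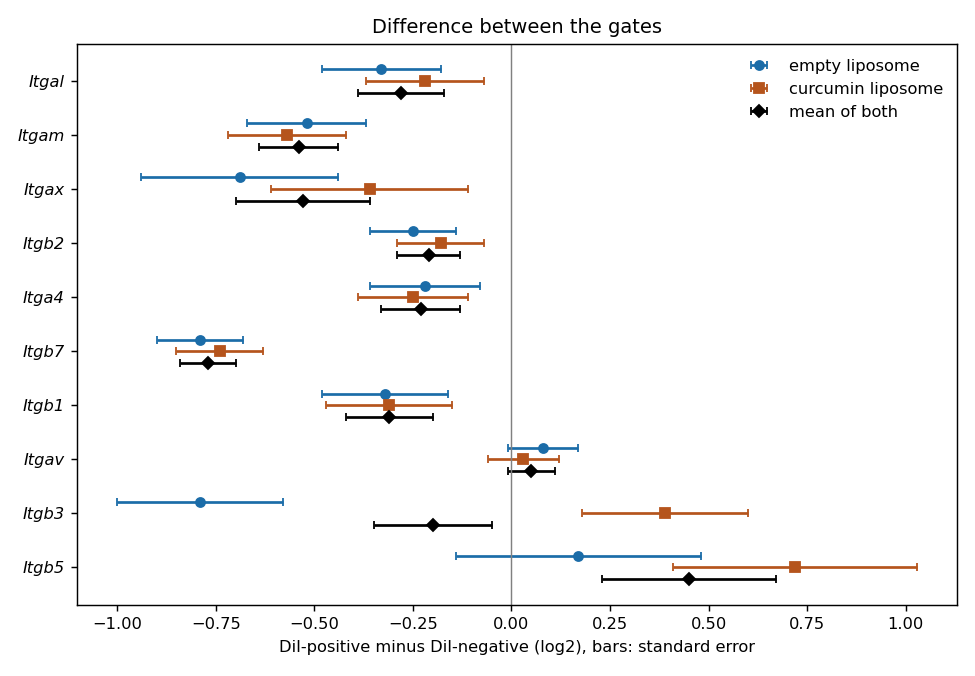
Difference between DiI-positive and DiI-negative cells for each chain (horizontal axis, log2), after empty liposomes, after curcumin liposomes and averaged, with standard errors as bars. The averaged differences run from -0.77 for Itgb7 to 0.45 for Itgb5.

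Among the beta2 family, Itgam (CD11b), the alpha chain of the Mac-1 receptor for complement-coated particles, read 12.64, 12.62 and 12.81 in the 3 empty DiI-positive libraries and 13.23, 13.35 and 13.04 in the empty DiI-negative ones. After curcumin liposomes it read 12.44, 12.36 and 12.89 in DiI-positive and 13.17, 13.27 and 12.95 in DiI-negative libraries. All 6 DiI-positive libraries thus lay below all 6 DiI-negative ones. The averaged difference was -0.54 ± 0.10 (1.46-fold, limma adjusted p = 0.0066). Within a liposome it was -0.52 ± 0.15 after empty (adjusted p = 0.088) and -0.57 ± 0.15 after curcumin (adjusted p = 0.061), neither past the threshold. Both were called without curcumin DiI-positive replicate 3, at -0.52 (limma adjusted p = 0.027) and -0.73 (limma adjusted p = 0.0066). With the depth index in the fit the averaged difference was -0.53 and no longer called (adjusted p = 0.069). Relative to Itgal per length, Itgam was at -1.31 to -0.99 in DiI-positive and -1.03 to -0.79 in DiI-negative libraries, ranges that overlap.

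Itgax (CD11c), the alpha chain used as the sorting marker, read 12.93, 12.01 and 12.68 in the empty DiI-positive libraries and 13.48, 13.16 and 13.05 in the empty DiI-negative ones. After curcumin liposomes it read 12.60, 12.55 and 13.24 in DiI-positive and 12.95, 13.08 and 13.45 in DiI-negative libraries. The gates overlapped after curcumin but not after empty liposomes. The difference was -0.69 ± 0.25 after empty (limma adjusted p = 0.16), -0.36 ± 0.25 after curcumin (adjusted p = 0.48) and -0.53 ± 0.17 on average (adjusted p = 0.075). It was called on average without curcumin DiI-positive replicate 3 (-0.64, limma adjusted p = 0.024) or without empty DiI-positive replicate 1 (-0.62, limma adjusted p = 0.046), and it was -0.19 (adjusted p = 0.60) with the depth index in the fit. The shallowest library, empty DiI-positive replicate 2, was also the one with the lowest Itgax. Both gates were sorted on CD11c protein, so these are levels among CD11c+ cells only.

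Itgal (CD11a), the alpha chain of the ICAM receptor LFA-1, averaged 14.19 ± 0.17 (DiI-positive) and 14.52 ± 0.06 (DiI-negative) after empty liposomes, and 14.21 ± 0.29 and 14.44 ± 0.22 after curcumin liposomes (SD, n = 3). Its averaged difference was -0.28 ± 0.11 (limma adjusted p = 0.12). Itgb2 (CD18), the partner of all 3 of these alpha chains, ran from 14.79 to 15.13 and from 15.16 to 15.34 in the same 2 groups after empty liposomes, and from 14.93 to 15.24 and from 15.14 to 15.31 after curcumin liposomes, with an averaged difference of -0.21 ± 0.08 (limma adjusted p = 0.10). Neither passed the threshold with all libraries. Without curcumin DiI-positive replicate 3 they were called at -0.36 (Itgal, limma adjusted p = 0.022) and -0.26 (Itgb2, limma adjusted p = 0.037).

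Itgb7, the beta chain that pairs with alpha4 or with alphaE, read 13.94, 14.17 and 13.85 in the empty DiI-positive libraries and 14.88, 14.68 and 14.77 in the empty DiI-negative ones. After curcumin liposomes it read 14.06, 14.03 and 14.13 in DiI-positive and 14.84, 14.64 and 14.96 in DiI-negative libraries. The highest DiI-positive library (14.17) lay below the lowest DiI-negative one (14.64). Itgb7 was lower in DiI-positive cells by 0.79 ± 0.11 after empty liposomes (limma adjusted p = 0.0047) and by 0.74 ± 0.11 after curcumin liposomes (limma adjusted p = 0.0060). On average it was lower by 0.77 ± 0.07 (1.70-fold, limma adjusted p = 0.00026). It was called in all 3 comparisons whichever single library was left out, and with the depth index in the fit. When the 6 curcumin libraries were fitted alone, its adjusted p was 0.059 at the same difference.

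Itga4, the alpha chain that Itgb7 shares with Itgb1, was not called in any of the 3 comparisons. It lay between 12.38 and 12.95 in all libraries, and its averaged difference was -0.23 ± 0.10 (limma adjusted p = 0.15). Itgb1, the partner of many alpha chains, averaged 13.06 ± 0.16 (DiI-positive) and 13.37 ± 0.00 (DiI-negative) after empty liposomes, and 13.06 ± 0.38 and 13.37 ± 0.07 after curcumin liposomes (SD, n = 3). Its averaged difference was -0.31 ± 0.11 (limma adjusted p = 0.09). Curcumin DiI-positive replicate 3, at 13.49, was the highest Itgb1 library of all, and without it the averaged difference was -0.42 (limma adjusted p = 0.0025) and that after curcumin liposomes -0.52 (limma adjusted p = 0.013). Per length, Itgb7 exceeded Itgb1 by 1.19 to 1.86 log2 units in DiI-positive and by 1.85 to 2.09 in DiI-negative libraries, so the ranges met at their ends. Whether the gate difference of Itgb7 differed from that of Itgb1 was not tested.

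Of the vitronectin receptor chains, none was called between the gates. For Itgav and Itgb3 the difference within a liposome shares libraries with the comparison that chose them, so it is given without a test. Itgav differed by 0.08 ± 0.09 after empty and 0.03 ± 0.09 after curcumin liposomes, and by 0.05 ± 0.06 on average (limma adjusted p = 0.65). Itgb3 was lower in DiI-positive cells after empty liposomes (-0.79 ± 0.21) and higher after curcumin liposomes (0.39 ± 0.21), with an average of -0.20 ± 0.15 (limma adjusted p = 0.43). Itgb5, which pairs with Itgav in macrophages and dendritic cells, was at 0.17 ± 0.31 after empty (limma adjusted p = 0.83), 0.72 ± 0.31 after curcumin (adjusted p = 0.24) and 0.45 ± 0.22 on average (adjusted p = 0.21). Its libraries were the most scattered, from 9.93 (curcumin DiI-negative replicate 3) to 11.78 (curcumin DiI-positive replicate 1).

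The comparison of curcumin with empty liposomes asked what the drug load added within each gate. Since it chose Itgav and Itgb3, the values describe these libraries only. Itgav read 10.92, 10.79 and 10.91 in empty DiI-positive and 10.47, 10.52 and 10.60 in curcumin DiI-positive libraries. In DiI-negative cells it read 10.73, 10.89 and 10.75 after empty and 10.51, 10.47 and 10.55 after curcumin liposomes. All 6 curcumin libraries lay below all 6 empty ones, by -0.34 ± 0.09 in DiI-positive and -0.28 ± 0.09 in DiI-negative cells. Over the alternative settings these differences ran from -0.38 to -0.31 and from -0.31 to -0.23. Those settings reuse the libraries that chose Itgav, so these ranges are no support for a difference.

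Itgb3, the partner of Itgav and, in platelets, of Itga2b, read 9.77, 9.21 and 9.53 in empty DiI-negative libraries and 8.37, 8.50 and 8.81 in curcumin DiI-negative ones, without overlap. In DiI-positive cells it read 8.86, 8.90 and 8.38 after empty and 8.66, 8.98 and 9.22 after curcumin liposomes, with overlap. The difference was -0.95 ± 0.21 (1.93-fold) in DiI-negative and 0.24 ± 0.21 in DiI-positive cells, and these differ by 1.18 ± 0.29. The empty DiI-negative group had the highest mean (9.50), and the highest library outside it (9.22, curcumin DiI-positive replicate 3) was level with its lowest (9.21). Among platelet genes, Itga2b was also highest in the empty DiI-negative group, at a mean of 8.43 against 7.16 (empty DiI-positive), 7.41 (curcumin DiI-positive) and 7.99 (curcumin DiI-negative). Pf4 had means of 7.27, 7.60, 7.77 and 7.10 in these groups, and Ppbp stayed between 4.35 and 4.76. Only 3 of the 8 platelet markers passed the filter on low values, and the part of platelets in the Itgb3 values was not tested.

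For the other 8 chains, differences between the liposomes in DiI-positive cells ran from -0.13 (Itgam) to 0.26 (Itgax). In DiI-negative cells they ran from -0.39 ± 0.31 (Itgb5) to 0.08 (Itga4). Libraries did not overlap for 1 of the 10 chains in DiI-positive cells (Itgav, lower), beside 5.09% of genes lower in this way, and for 2 in DiI-negative cells (Itgav and Itgb3, lower), beside 5.50%. Nothing is read from these counts, since this comparison chose both chains. The median over the 10 chains was 0.06 and -0.07.

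**Figure D3:**
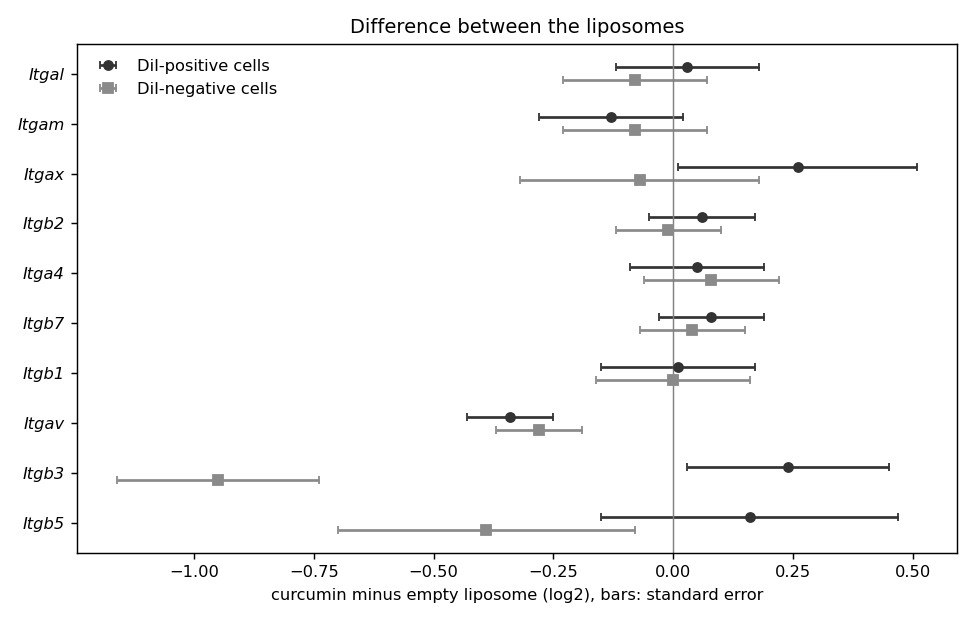
Difference between curcumin and empty liposomes for each chain (horizontal axis, log2) in DiI-positive and DiI-negative cells, with standard errors as bars. Itgav is below 0 in both gates (-0.34 and -0.28), and Itgb3 is below 0 in DiI-negative cells (-0.95) and above it in DiI-positive cells (0.24).

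Genes with the most similar pattern were sought among 11443 genes by the root mean square difference of centred values over 12 libraries, for chains that varied more than the median gene. Those nearest to Itgb7 were Lsp1 (0.12), Nfkb1 (0.12) and Ikzf2 (0.13), and those nearest to Itgam were Aes (0.11), Pitpna (0.12) and Galnt10 (0.12). Itgal was matched most closely by Oaz2 (0.07), Thtpa (0.08) and Nadk (0.10), and Itgb1 by Zmiz1 (0.08), Lcp1 (0.08) and Crk (0.09). For Itgax they were Ppfia4 (0.15), Sh3bp1 (0.16) and Ctnnbip1 (0.17), and for Itgb5 Capg (0.20), Fcgr3 (0.21) and Pilrb1 (0.22). The nearest genes to Itgb3 lay farther off, at the level of Abcc4 (0.28), Hdhd5 (0.28) and Zfp473 (0.29). Such distances grow with the spread of the chain itself. The SD over the libraries was 0.23 for Itgal, 0.24 for Itgb1, 0.33 for Itgam, 0.42 for Itgax and Itgb7, 0.44 for Itgb3 and 0.47 for Itgb5.

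The other genes of the pathway are given from 6 lists for the averaged comparison of the gates, in which 5.54% of all tested genes were called higher and 6.56% lower, with a median of 0.01. Most list counts are a few genes, and none was tested against that share. Of the other integrin chains, 10 of 17 were tested (2 were listed at 0 in all libraries and 5 fell below the filter). Of these 1 was higher and 2 lower in DiI-positive cells, with a median of -0.29. Itga5, the fibronectin receptor chain, was lower in DiI-positive cells (average -0.53 ± 0.10, limma adjusted p = 0.0055). Means were 11.93 ± 0.15 in DiI-positive and 12.41 ± 0.11 in DiI-negative cells after empty liposomes, and 12.11 ± 0.23 and 12.70 ± 0.19 after curcumin liposomes. Itga9, a partner of Itgb1, was higher by 1.03 ± 0.20 (limma adjusted p = 0.0078), and Itga2b, the platelet partner of Itgb3, was lower by -0.92 ± 0.25 (limma adjusted p = 0.032). Itga2 was close to the filter of 4, at 4.21 to 4.82 in all libraries. It missed the threshold at -0.28 ± 0.10 (limma adjusted p = 0.089). It passed at -0.36 without empty DiI-negative replicate 3 (limma adjusted p = 0.014) and, narrowly, at -0.34 without curcumin DiI-negative replicate 1 (limma adjusted p = 0.050).

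Of the genes that switch integrins on from inside, 17 of 20 were tested, with 1 higher, 2 lower and a median of -0.01. Skap1, an adaptor that links Rap1 signalling to integrins in lymphocytes, was lower in DiI-positive cells (average -1.16 ± 0.12, limma adjusted p = 0.00032). Means were 7.52 ± 0.21 in DiI-positive and 8.93 ± 0.20 in DiI-negative cells after empty liposomes, and 7.77 ± 0.10 and 8.67 ± 0.26 after curcumin liposomes. Of the NK and T cell markers given above, Nkg7, Klrb1c, Klrd1, Ncr1, Gzma, Trbc2 and Lck were called lower too. Prf1 (-1.12) and the T cell genes Cd3e (-0.13), Cd3d (-0.18), Cd3g (-0.24) and Trac (-0.15) were not called. The part of NK and T cells in Skap1 was not tested. Rasgrp2, an exchange factor for Rap1, was higher by 0.45 ± 0.12 (limma adjusted p = 0.033), and Rap1b was lower by -0.30 ± 0.09 (limma adjusted p = 0.046). Talin (Tln1), which binds beta chain tails, was at -0.28 ± 0.09 (limma adjusted p = 0.063). It was called at -0.34 without curcumin DiI-positive replicate 3 (limma adjusted p = 0.014) and at -0.34 without empty DiI-positive replicate 3 (limma adjusted p = 0.031).

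Of the genes of outside-in signalling and the adhesion complex, 28 of 30 were tested, with 2 higher, 6 lower and a median of -0.12. Zyxin (Zyx), an actin regulator of focal adhesions, was lower in DiI-positive cells (average -0.92 ± 0.09, limma adjusted p = 0.00026). Means were 12.65 ± 0.08 in DiI-positive and 13.63 ± 0.04 in DiI-negative cells after empty liposomes, and 12.76 ± 0.29 and 13.63 ± 0.13 after curcumin liposomes. Vinculin (Vcl), which ties talin to actin, was lower by -0.89 ± 0.16 (limma adjusted p = 0.0051). The scaffold Cass4 was lower by -0.48 ± 0.12 (limma adjusted p = 0.024).

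Among cell surface ligands 8 of 12 were tested, with 2 higher, 1 lower and a median of -0.18. Vcam1, the ligand of the alpha4 and Itgb1 pair, was 11.87 ± 0.48 in DiI-positive and 9.99 ± 0.11 in DiI-negative cells after empty liposomes, and 12.36 ± 0.87 and 9.97 ± 0.28 after curcumin liposomes (average 2.14 ± 0.25, limma adjusted p = 0.00056). Icam2, a ligand of LFA-1, was higher by 0.74 ± 0.15 (limma adjusted p = 0.0087). E-cadherin (Cdh1), the ligand of alphaE paired with Itgb7, was lower by -1.21 ± 0.26 (limma adjusted p = 0.013), and Thy1 missed the threshold at -0.22 ± 0.07 (limma adjusted p = 0.059).

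Of the matrix and soluble ligands 15 of 22 were tested, with 3 higher, 1 lower and a median of 0.15. Nidogen (Nid1), a basement membrane protein, was higher by 2.17 ± 0.30 (limma adjusted p = 0.0011), with means of 9.40 ± 0.19 and 9.05 ± 0.41 in DiI-positive cells. Fibronectin (Fn1) was lower by -0.68 ± 0.17 (limma adjusted p = 0.025). The fibrinogen chains Fgg (0.50 ± 0.13, limma adjusted p = 0.026) and Fga (0.39 ± 0.10, limma adjusted p = 0.032) were higher, at low group means of 5.23 to 6.16. Both are hepatocyte products. The 6 hepatocyte markers tested were all above 0 in the same comparison, with a median of 0.37, and none was called. Alb was at 0.79 ± 0.25 and Apoa1 at 0.56 ± 0.18 (limma adjusted p = 0.062 for each), and the part of hepatocyte RNA in Fgg and Fga was not tested.

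Tetraspanins and other partners within the membrane had 11 of 12 genes tested, with 5 higher, 1 lower and a median of 0.26. Cd81, a tetraspanin that associates with beta1 integrins and with the B cell coreceptor, was 13.54 ± 0.23 in DiI-positive and 12.46 ± 0.30 in DiI-negative cells after empty liposomes, and 13.70 ± 0.09 and 12.21 ± 0.30 after curcumin liposomes (average 1.28 ± 0.13, limma adjusted p = 0.00026). Slc3a2, the CD98 heavy chain that binds beta chain tails, was higher by 0.51 ± 0.06 (limma adjusted p = 0.0005). The lysosomal tetraspanin Cd63 (0.83 ± 0.17, limma adjusted p = 0.010) and the leukocyte tetraspanin Cd37 (0.81 ± 0.14, limma adjusted p = 0.0045) were higher too. Kupffer cell and B cell markers were higher in the same libraries, and their part in Vcam1, Nid1, Cd37 and Cd81 was not tested.

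**Figure D4:**
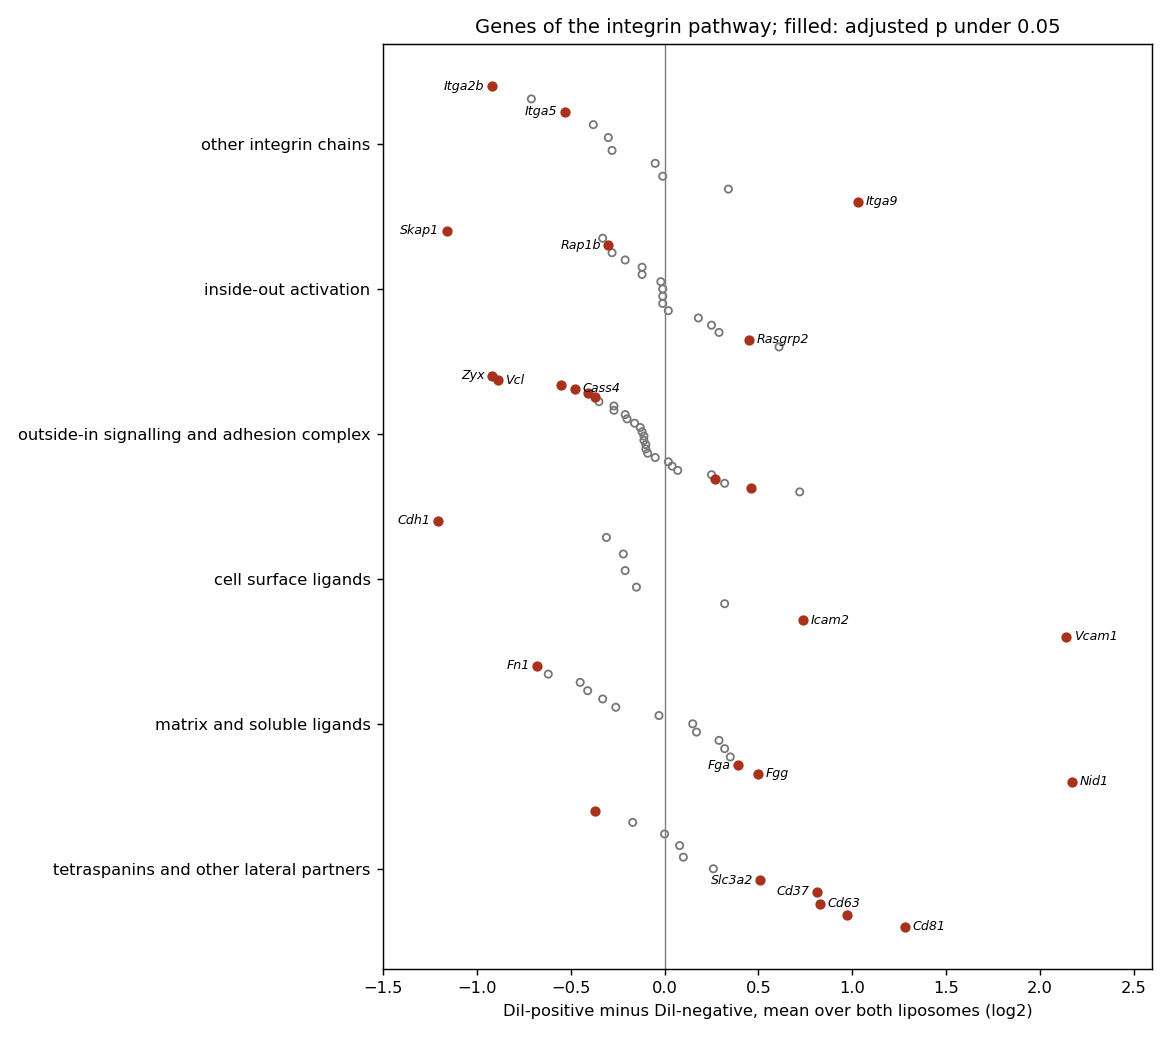
Difference between DiI-positive and DiI-negative cells averaged over both liposomes (horizontal axis, log2) for the tested genes of 6 integrin pathway lists. Each point is a gene, filled where the limma adjusted p is under 0.05, and the called genes described in the text are labelled, from Cdh1 at -1.21 to Nid1 at 2.17.

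Of the called pathway genes named here, Itga5, Skap1, Zyx, Vcam1, Nid1, Cd81 and Slc3a2 passed the threshold in all alternatives run. The others lost the call with the depth index in the fit. Without a filter on low values Fga, Itga2b, Rap1b and Rasgrp2 lost it as well, and with quantile normalization Fga and Rap1b did. Rap1b lost it without a trend in the prior variance, and Rasgrp2 with library weights. Cass4 lost it without empty DiI-positive replicate 1, empty DiI-negative replicate 1, curcumin DiI-positive replicate 2 or curcumin DiI-negative replicates 2 or 3. Fga lost it without any 1 library other than empty DiI-positive replicate 1, empty DiI-negative replicate 2 or curcumin DiI-positive replicate 3. Fgg lost it without empty DiI-negative replicates 1, 2 or 3, curcumin DiI-positive replicate 2 or curcumin DiI-negative replicate 2. Fn1 lost it without any 1 library other than empty DiI-positive replicate 1, curcumin DiI-positive replicates 2 or 3 or curcumin DiI-negative replicates 2 or 3. Itga2b lost it without any 1 library other than empty DiI-positive replicate 3, curcumin DiI-positive replicates 1 or 3 or curcumin DiI-negative replicate 3. Rap1b lost it without any 1 library other than empty DiI-positive replicate 1 or curcumin DiI-positive replicate 3. Rasgrp2 lost it without any 1 library other than empty DiI-positive replicate 1, empty DiI-negative replicate 3, curcumin DiI-positive replicate 3 or curcumin DiI-negative replicates 1 or 2.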

How the data were processed

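Sorted-cell RNA was reverse transcribed and amplified with a SMARTer Ultra Low Input kit before Nextera XT library preparation, per the labels' protocols. The authors deposited 1 log2 expression value per gene and library. STAR 2.4.0d, DESeq2 1.8.1 and GRCm38 were used, per the submitters' processing notes, while counter, annotation and transform were not given in the sources used here. On inspection, the deposited log2 values look like a regularized log, with a minimum of -3.62, a maximum of 19.4 and 20918 of the 45792 genes at 0 throughout, and folds of low genes are understated. The 24 sample records carry 12 library codes, 2 records to a code, and each code was counted as 1 library. Each code was assigned to a group through the series' design text.

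Genes averaging 4 or more on the log2 scale (14227) entered 1 limma 3.58.1 fit in R 4.3.3 of all 12 libraries, with a mean per group, a trended prior variance (8 residual and 3.51 prior degrees of freedom) and Benjamini-Hochberg adjustment, called under 0.05. Standard errors come from this fit. The averaged contrast is the mean of the gate differences after empty and after curcumin liposomes. The unadjusted p was under 0.05 for 2540 (empty), 2596 (curcumin) and 3770 genes (average). The relative depth index came from 1009 genes with an apparent lone count in 1 library, and varied 1.75-fold. The fit was tested on simulated data for the 14227 genes: a change of 1 was recovered for 70.6% (empty), 68.2% (curcumin) and 88.8% (average) of changed genes, and a change of 0.5 for 20.4%, 20.6% and 49.2%. Noise was drawn independently for each gene, with equal spread in all libraries, and 200 genes were changed per draw. The rates hold for that setting and need not hold for these libraries.

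All 10 chains are named in each comparison, and of each pathway list up to 4 genes with the smallest p in the averaged contrast, of which 1 is not reported here. The members, lists and tests were chosen with earlier results of these data known. Alternatives were another filter, scaling, spread, library weights, a replicate block, the depth index as a covariate, transcript length, and each library left out.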

Additional observations from a re-analysis of the deposited data

How the results depend on the processing

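No result changed direction past the threshold. Genes called after empty liposomes numbered 419, and 263 without a filter, 789 with library weights and 114 with the depth index in the fit. After curcumin liposomes they numbered 437, and 248 without a filter, 40 when only the libraries compared were fitted and 72 with the depth index. For the average they numbered 1722, and 426 with the depth index. The integrin chains called after empty liposomes were 1, and 2 when only the libraries compared were fitted (Itgam added) and 3 with library weights. The last adds Itgam and Itgb3, and that of Itgb3 is no test, since the choice of Itgb3 used the same libraries. After curcumin liposomes they were 1, and 2 with the filter on low values raised to 6 (Itgam added, limma adjusted p = 0.045) and 0 when only the libraries compared were fitted. For the average they were 2, and 1 with the depth index. Leaving out each library in turn gave 85 to 659 (empty), 114 to 1088 (curcumin) and 1149 to 2244 (average) called genes, and 1 to 2, 1 to 3 and 2 to 6 called chains. Beyond the called ones, the difference of Itgax after curcumin liposomes was 0.02 with the depth index. Of the single-chain values under the alternatives, 615 kept their side of the threshold, 12 gained a call, 2 lost one and 1 moved by more than its spread between libraries. The cause of these changes was not tested. Whether same-numbered libraries came from the same mice is not stated. The deviations of same-numbered libraries correlated from -0.11 to 0.33, with 2 of 18 pairs over 0.1. For the 2 gates within a liposome, they correlated at 0.08, 0 and 0.08 (empty) and 0.07, 0.03 and 0.33 (curcumin). These values do not decide whether the gates were paired, and the main fit did not pair them. A replicate block gave 405, 407 and 1616 called genes and left 1, 1 and 2 chains called. Of the named pathway genes it ended the call of Rap1b and added Tln1 and Thy1 in the averaged comparison. Read depth is not given in these values, so precision rests on the spread between 3 libraries a group.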
